A study of Mus musculus with 8 samples.

Results

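Lipid uptake was followed here through 7 genes of the 33,027 in the data, namely Lpl, Gpihbp1, Cd36, Fabp4, Fabp5, Pparg and Plin2. They were chosen as members of the pathway that brings fatty acids from blood lipoproteins into lung cells, and were selected on measured values, in that Lpl was lower in general capillary (gCap) cells of smoke mice. The gCap difference is therefore given as a description, with no test. The levels come from single-cell RNA of 8 mice on a C57BL/6 background, 4 exposed to cigarette smoke (CS) and 4 to room air (RA), with 1 library per mouse and 2 mice labelled male and 2 labelled female in each group. All 8 mice carried the Sftpc-CreERT2 and mTmG alleles, in which a Cre recombinase driven by the surfactant protein C promoter of alveolar type II (AT2) cells switches on a reporter. All received tamoxifen at 8 to 10 weeks of age, and exposure then ran for 10 months. Cells came from digested right lungs, and immune cells were separated with CD45 beads and added back as a minority, so the share of immune cells was set by the mixing.

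Lipoprotein lipase, the product of Lpl, cuts the triglycerides of chylomicrons and very low density lipoproteins into fatty acids on the inner face of capillaries. In most tissues it is made by other cells and carried across the capillary wall by GPIHBP1, a protein anchored to the endothelial surface. Fatty acids are then taken up with the help of the scavenger receptor CD36, bound in the cytosol by fatty acid binding proteins such as FABP4 and FABP5, and stored in droplets coated by perilipin 2, the product of Plin2. PPARγ, encoded by Pparg, is a nuclear receptor that turns on many of these genes and is known for its role in alveolar macrophages, which clear surfactant lipid.

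On GRCm38, Lpl (ENSMUSG00000015568.16) lies on chromosome 8 from 68880491 to 68907448 on the plus strand, and Gpihbp1 (ENSMUSG00000022579.10) on chromosome 15 from 75596628 to 75599481 on the plus strand. Cd36 (ENSMUSG00000002944.15) lies on chromosome 5 from 17781690 to 17888801 on the minus strand. Fabp5 (ENSMUSG00000027533.10) and Fabp4 (ENSMUSG00000062515.3) share chromosome 3, at 10012548 to 10016607 on the plus strand and 10204088 to 10208576 on the minus strand. Pparg (ENSMUSG00000000440.12) lies on chromosome 6 from 115360951 to 115490399 on the plus strand, and Plin2 (ENSMUSG00000028494.12) on chromosome 4 from 86648386 to 86670060 on the minus strand. All 7 are annotated as protein coding.

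The level of a gene in a mouse is its number of transcripts per 10,000 in each cell, averaged over the cells of one type, and n counts mice throughout. After 1,025 multiplets and 7 cells labelled cell cycle were left out, 40,074 cells remained, with 3,317 to 6,153 cells and 33,145,100 to 48,490,600 unique molecular identifiers (UMIs) per CS mouse, and 2,553 to 6,371 cells and 31,094,700 to 52,753,500 UMIs per RA mouse. The libraries shared 197 of 40,909 distinct barcodes. Sex-linked transcripts matched the labels in the 4 RA libraries and went against them in the 4 CS libraries, where those labelled male held Xist at 7.83 and 8.34 and those labelled female held Ddx3y at 0.925 and 1.08. The exposure groups were used as labelled. The 22 types described are those with at least 20 cells in at least 3 mice of each group. Types with fewer cells were left out of all comparisons between types. In gCap cells, 5 of 6 marker genes were higher than in any other of the 22 types. The same held for 6 of 6 aerocyte markers, 7 of 7 alveolar macrophage markers, 4 of 6 alveolar fibroblast markers and 6 of 6 adventitial fibroblast markers in their own types. Of the macrophage markers, Ctsd (0.138) and Siglecf (0.955) were low.

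Lpl had its highest level in alveolar macrophages, at 23.4 ± 6.80 transcripts per 10,000 (SD, n = 8 mice), 5.11 times the level in gCap cells, which came next at 4.58 ± 3.61 (SD, n = 8). Alveolar macrophages were above gCap cells in 8 of 8 mice. Arterial endothelial cells followed at 2.13 ± 1.30 (SD, n = 8), and the remaining types were below 1, with 6 of 22 under 0.1. Neighbours from the venous endothelium downward did not differ beyond their spread: venous endothelial cells (0.703), adventitial fibroblasts (0.618), classical monocytes (0.579) and AT2 cells (0.561) overlapped in their ranges. Alveolar fibroblasts, at 0.165, and aerocytes carried little Lpl.

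Gpihbp1 was highest in gCap cells, at 12.3 ± 1.84 (SD, n = 8), above venous endothelial cells (4.92 ± 1.61) in 8 of 8 mice with no overlap of their ranges. Venous and arterial endothelial cells (4.60 ± 0.835) were not ordered, since venous was the higher in 3 of 8 mice. Lymphatic endothelial cells held 1.47 ± 0.695, and aerocytes, the other capillary type, held 0.545 ± 0.551. The gCap cell was thus the type with the most Gpihbp1 and the type next after alveolar macrophages for Lpl.

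Cd36 was high in both capillary types, at 21.3 ± 4.30 in aerocytes and 18.9 ± 3.58 in gCap cells (SD, n = 8). Aerocytes were the higher in 8 of 8 mice, although the ranges over mice overlapped. Venous (10.7 ± 0.707) and arterial (8.28 ± 1.85) endothelial cells came next, then AT2 cells (6.64 ± 0.886) and non-classical monocytes (6.05 ± 1.13, n = 7). Of the 22 types, 9 held at least 1 Cd36 transcript per 10,000.

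The binding proteins were placed differently. Fabp5 was highest in AT2 cells, at 12.5 ± 1.63 (SD, n = 8), 4.12 times the level of alveolar macrophages (3.03 ± 1.04), with no overlap. Fabp4 was shared by alveolar macrophages (4.60 ± 2.22), venous endothelial cells (3.57 ± 1.86) and non-classical monocytes (2.66 ± 0.491, n = 7), whose ranges overlapped, and it stood under 0.1 in 17 of 22 types. Both capillary types were among those 17.

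Pparg was highest in non-classical monocytes, at 7.54 ± 1.46 (SD, n = 7), above alveolar macrophages (3.17 ± 0.687, n = 8) with no overlap. Only these 2 types reached 1 transcript per 10,000. Plin2 was highest in alveolar macrophages, at 15.4 ± 2.25 (SD, n = 8), and lower with no overlap in classical monocytes (7.21 ± 0.822). Non-classical monocytes held 6.44 ± 1.77 (n = 7) and alveolar fibroblasts 2.92 ± 0.783 (n = 8).

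**Figure D1:**
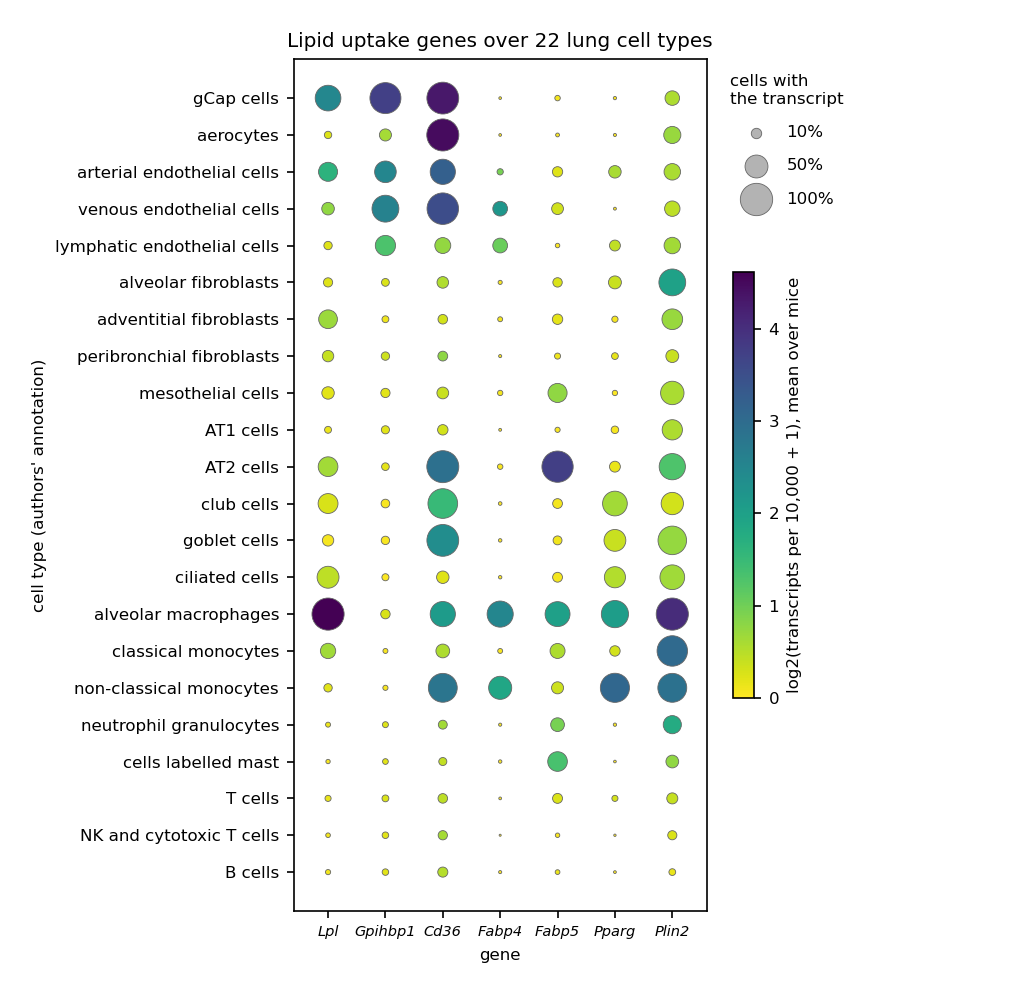
Levels of the 7 genes (columns) in 22 cell types (rows). Colour gives log2(transcripts per 10,000 + 1) from the mean over mice, and dot area the percent of cells with the transcript. Lpl is darkest in alveolar macrophages, Gpihbp1 in gCap cells, Cd36 in both capillary types and Fabp5 in AT2 cells.

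Over the 22 types, the levels of the 7 genes were only partly alike, and these correlations are descriptions of points that share libraries. On log2(level + 1), Pearson's r was highest between Pparg and Plin2 (0.68), Fabp4 and Pparg (0.67), and Gpihbp1 and Cd36 (0.63), and was 0.40 between Lpl and Gpihbp1. Among 6,848 genes, those most like Gpihbp1 were Sox17, Tmem44 and Tek (r = 0.99, 0.98 and 0.98), with levels that peaked in gCap cells. Those most like Lpl were F7, Pwwp3a and Krt79 (r from 0.85 to 0.85), which peaked in alveolar macrophages. For Cd36 these were Dram2, Epas1 and Kcnq1 (0.85, 0.84 and 0.84), and for Fabp4 Ptpn12, 3110082I17Rik and Sgk1 (0.79, 0.78 and 0.78). For Fabp5 they were Lyz1, Apoc1 and Dram1 (0.86, 0.85 and 0.84), which peaked in AT2 cells. Pparg was most like 5430437J10Rik, Lilra5 and Cyp4f16 (0.94, 0.93 and 0.91), and Plin2 was most like Cd68, Mpeg1 and Eepd1 (0.93, 0.92 and 0.92).

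In gCap cells, where the genes were chosen for the difference, the enzyme and its carrier were both lower in CS mice, and Cd36 was not separated. Lpl stood at 2.79, 2.14, 2.33 and 2.82 transcripts per 10,000 in CS mice C2, C5, D2 and D5, and at 13.2, 4.49, 4.32 and 4.63 in RA mice F1, F3, M1 and M3. Every CS mouse was below every RA mouse, and RA mouse F1 stood far above the other 3. The means were 2.52 ± 0.335 in CS and 6.65 ± 4.34 in RA (SD, n = 4 each), a CS over RA ratio of 0.379, and the difference on log2(level + 1) was -0.99 (standard error 0.280). Without F1 the ratio came to 0.563 and the log2 difference to -0.64 (standard error 0.083). Of 6,556 genes tested in gCap cells, 10.3% were called at an adjusted p of 0.05, and 11% had every CS mouse below every RA mouse. The 672 calls behind the first share became 29 without C2, 39 without D2, 0 without D5 and 34 without F3, and 495 to 657 without one of the other 4 mice.

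Averaged over mice, 51.3% of CS gCap cells and 74.5% of RA gCap cells held an Lpl transcript. With each cell thinned to 2,000 UMIs, which left out 368 CS and 473 RA cells, the shares were 33.1% and 58.1%. In B cells, a type that should lack the gene, the thinned shares were 0.53% and 2.16%, the latter from F1 (6.67%), without which the RA share was 0.66%. Without F1 the thinned RA share in gCap cells was 49.9%. Median depth per cell was 3,482 to 4,925 UMIs in gCap cells of CS mice and 3,024 to 5,226 in RA mice, against 3,690 to 4,681 and 3,421 to 4,542 in B cells. Among the gCap cells with the transcript, Lpl averaged 4.25 to 5.28 per 10,000 in CS mice and 6.40 to 6.47 in RA mice F3, M1 and M3, and 14.8 in F1.

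Gpihbp1 in gCap cells stood at 9.58, 10.8, 12.6 and 11.3 in CS mice C2, C5, D2 and D5, and at 15.6, 12.7, 12.7 and 13.5 in RA mice F1, F3, M1 and M3. The groups did not overlap, although the highest CS mouse, D2, came close to the lowest RA mice. The means were 11.1 ± 1.27 and 13.6 ± 1.38 (SD, n = 4 each), a ratio of 0.812, and differed by -0.28 on the log2 scale (standard error 0.117). Cd36 went from 17.6 to 23.3 in CS mice and from 11.9 to 20.3 in RA mice, so the groups overlapped, and F1, highest for Lpl and Gpihbp1, was lowest for Cd36. Its log2 difference was 0.27 (standard error 0.171). Fabp4, Fabp5 and Pparg were each found in too few gCap cells to be compared, and Plin2, with a level below 1, overlapped between the groups.

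Some of what else moved in gCap cells moved with the groups. The summed level of 9 genes that rise when tissue is digested, such as Fos, Jun and Atf3, ran from 37.9 to 66.7 in CS mice and from 79.8 to 106 in RA mice, with F1 the highest. They are called digestion response genes here, and whether digestion or exposure moved them was not tested. Of these genes, Jun, Junb, Atf3 and Dnajb1 fell in CS mice (adjusted p = 0.030, 0.040, 0.042 and 0.034, limma). The 6 gCap markers summed to 76.6 to 85.6 in CS mice and 61.0 to 79.1 in RA mice, lowest in F1. Of them, Plvap, a diaphragm protein of fenestrated endothelium, fell (adjusted p = 0.020) and Sema3c, a guidance cue, rose (adjusted p = 0.038). These calls stood beside 10.3% of all genes called in gCap cells. With the sequencing lane as a block, or without CS mouse D5, 0 genes were called in this type. The part of the digestion response and marker shifts in the Lpl values was not tested. Markers of alveolar macrophages, the type richest in Lpl, summed to 0.0738 to 0.0901 in CS gCap cells and to 0.0563 to 0.0822 in those of RA mice F3, M1 and M3, with 0.347 in F1, against 145 to 326 in alveolar macrophages themselves. The 8 adipocyte markers summed to at most 0.0827 and the 6 cardiomyocyte markers to at most 0.103 in any mouse.

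**Figure D2:**
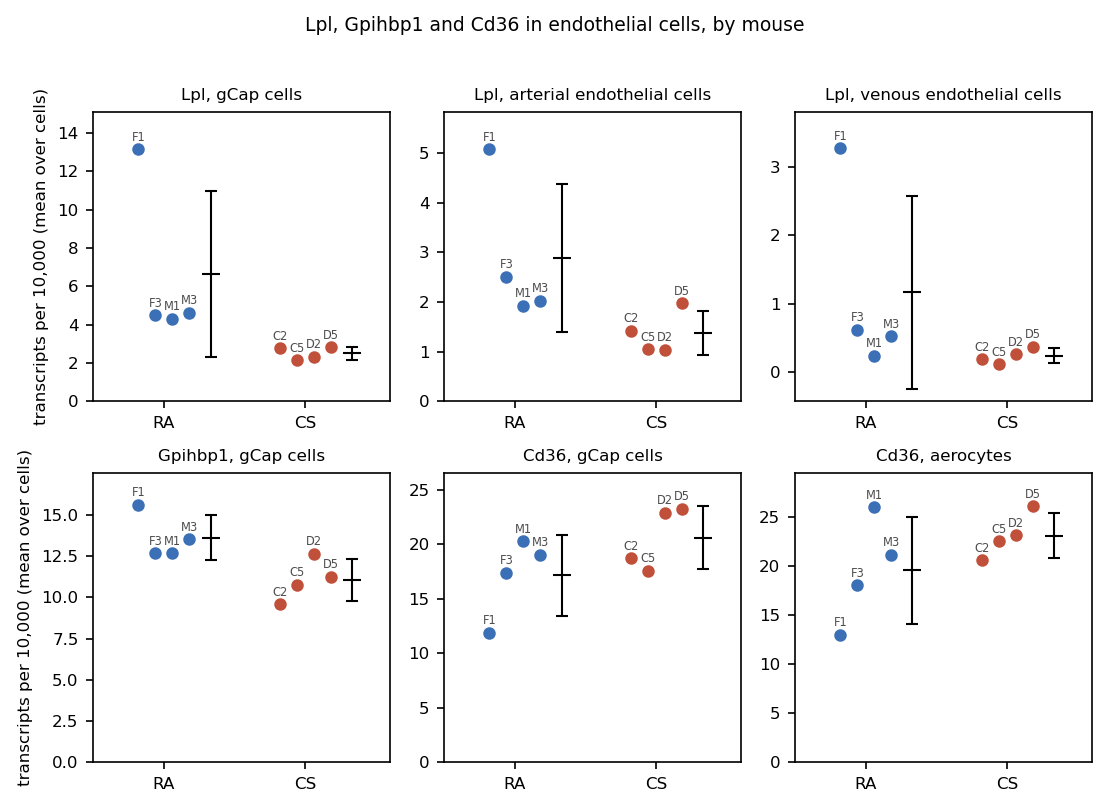
Transcripts per 10,000 (vertical axes from 0, or just below) of Lpl in 3 endothelial types, of Gpihbp1 in gCap cells and of Cd36 in both capillary types. Each point is a labelled mouse, and bars give mean ± SD of the 4 RA or 4 CS mice. RA mouse F1 is the highest for Lpl and Gpihbp1 in these panels, at 13.2 for Lpl in gCap cells, and the lowest for Cd36.

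Outside gCap cells, the 7 genes made 147 pairs with the 21 other types, of which 77 reached 10% of cells in the CS or the RA group and were tested with limma. Of these 77, 2 passed an adjusted p of 0.05, both higher in CS mice, and both in ciliated cells. Over all genes in the same 21 types, 0.873% of gene and type pairs were called, and in ciliated cells 4.63%. An unadjusted p under 0.05 was reached by 18 pairs, and by 14.4% of all gene and type pairs in these types. Of the 77, 65 reached 10% of cells in both groups, 9 in RA mice alone and 3 in CS mice alone, and in the last 12 the filter favoured one direction. The other 70 pairs were not tested.

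In ciliated cells, Cd36 stood at 0.201, 0.173, 0.275 and 0.232 in CS mice C2, C5, D2 and D5, and at 0.111, 0.0896, 0.125 and 0.149 in RA mice F1, F3, M1 and M3. All CS mice were above all RA mice, as were 9.28% of the genes tested in ciliated cells. These levels were far below those of capillary cells. The mean of Cd36 over mice, 0.169, was the lowest of the 22 types and below that of B cells (0.430). The log2 difference of Cd36 in ciliated cells was 0.12 (standard error 0.027, adjusted p = 0.0288, limma). Pparg in ciliated cells stood at 0.498, 0.503, 0.562 and 0.495 in CS mice and 0.339, 0.458, 0.345 and 0.301 in RA mice, again with no overlap, and its log2 difference was 0.16 (standard error 0.036, adjusted p = 0.0394). Neither call was kept with counts summed per mouse, with cells thinned to 2,000 UMIs or without RA mouse F1, where the adjusted p was 0.0566 for Cd36 and 0.0699 for Pparg. Among all alternative analyses, the Cd36 call was lost in 9 of 15 and the Pparg call in 11 of 16.

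In arterial endothelial cells, Lpl was lower on average in CS mice, and the difference did not pass the threshold. In aerocytes and lymphatic endothelial cells Lpl was found in too few cells to be tested. In arterial endothelial cells, Lpl stood at 1.42, 1.05, 1.04 and 1.97 in CS mice C2, C5, D2 and D5, and at 5.08, 2.51, 1.92 and 2.03 in RA mice F1, F3, M1 and M3. CS mouse D5 lay within the RA range and F1 was again the highest. The log2 difference was -0.66 (standard error 0.193, adjusted p = 0.119, limma), and -0.42 without F1 (adjusted p = 0.177). In venous endothelial cells, CS mice had Lpl levels of 0.121 to 0.376 and RA mice had 0.242 to 3.28. Here Lpl passed the filter through the RA mice alone, with 8.68% of CS and 25.3% of RA cells, so these values are a description. F1 held the highest of these values, and the CS over RA ratio of the means was 0.204 with it and 0.514 without it. Over the 13 types in which Lpl averaged at least 0.1 and all mice had a value, F1 was the highest of the 8 mice in 8 types and the lowest in 0.

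Gpihbp1 was tested in 4 types besides gCap cells, namely arterial, venous and lymphatic endothelial cells and aerocytes, and the difference was negative in 4 of 4, from -0.55 to -0.22 on the log2 scale, with none called and a smallest adjusted p of 0.333. The largest was in lymphatic endothelial cells, with 0.336, 0.632, 1.35 and 1.90 in CS mice C2, C5, D2 and D5 and 2.17, 1.68, 2.29 and 1.44 in RA mice F1, F3, M1 and M3. The groups overlapped through D5 (log2 difference -0.55, standard error 0.189, adjusted p = 0.372). F1 was the highest mouse for Gpihbp1 in 8 of 12 types. In aerocytes, where Cd36 peaked, it ran from 20.6 to 26.1 in CS mice and from 13.0 to 26.0 in RA mice, and the log2 difference of 0.26 had an adjusted p of 0.360.

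In alveolar macrophages, Lpl and Fabp5 were higher in every CS mouse than in every RA mouse, and neither passed the threshold after adjustment over 7,554 genes. Lpl stood at 27.2, 28.8, 32.1 and 26.8 in CS mice C2, C5, D2 and D5, and at 16.1, 13.1, 25.1 and 18.0 in RA mice F1, F3, M1 and M3. RA mouse M1 came nearest to the CS mice. The means were 28.7 ± 2.44 in CS and 18.1 ± 5.11 in RA (SD, n = 4 each), which is 1.59 times as much. On the log2 scale they differed by 0.67 (standard error 0.179), with an unadjusted p of 0.00126 and an adjusted p of 0.105 (limma). By exact permutation of the mice, two-sided, p = 0.0286, the smallest that 4 against 4 can give. The sign was positive in 16 of 16 alternative analyses, with adjusted p between 0.0207, without M1, and 0.564, with no filter on the share of cells. In this type, 0.53% of genes were called and 2.69% had every CS mouse above every RA mouse.

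Fabp5 in alveolar macrophages stood at 3.81, 3.79, 3.09 and 4.81 in CS mice C2, C5, D2 and D5, and at 1.75, 2.62, 2.36 and 2.04 in RA mice F1, F3, M1 and M3. The means were 3.88 ± 0.708 and 2.19 ± 0.382 (SD, n = 4 each), and differed by 0.61 on the log2 scale (standard error 0.152, adjusted p = 0.0838, limma; exact permutation p = 0.0286). The adjusted p ranged from 0.0557 to 0.533 over the alternatives. Averaged over mice, 63.4% of CS and 55.2% of RA cells held the transcript, and 45.1% and 29.7% after thinning, against 0.99% and 0.49% in thinned B cells. Thinning left out 22 CS and 6 RA alveolar macrophages.

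Cd36 in alveolar macrophages ran from 2.61 to 5.71 in CS mice and from 1.83 to 3.54 in RA mice, and overlapped (log2 difference 0.42, adjusted p = 0.459). Fabp4, Pparg and Plin2 also overlapped, with log2 differences of 0.12, -0.07 and -0.01 and adjusted p of 0.927 or more. For Plin2, the droplet coat protein, CS mouse D5 held 20.5 while the other 7 mice lay between 12.9 and 15.9.

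The alveolar macrophages numbered 178 over the CS and 240 over the RA mice, with 31 to 112 cells per mouse, and their median depth ran from 3,252 to 9,325 UMIs in CS mice and 5,082 to 9,917 in RA mice. Markers of gCap cells summed to 2.18 to 5.36 in alveolar macrophages of CS mice and to 0.256 to 1.35 in those of RA mice, and Cd93 among them was called (adjusted p = 0.044). Aerocyte markers summed to 4.77 to 14.1 in CS and 3.33 to 6.69 in RA mice, and overlapped. In CS mouse D2, erythroid markers summed to 21.4 and AT2 markers to 22.1. The macrophage markers summed to 171 to 215 in CS mice and 145 to 326 in RA mice. The digestion response genes summed to 37.7 to 48.7 in CS and 48.5 to 69.0 in RA mice. Lpl in gCap cells of CS mice was at most 2.82 per 10,000, below its level in alveolar macrophages of any mouse. Cd36 in gCap cells of CS mice was 17.6 to 23.3, above its 2.61 to 5.71 in alveolar macrophages of CS mice. The part of these markers, of depth and of the digestion response in the Lpl, Fabp5 and Cd36 values was not tested.

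**Figure D3:**
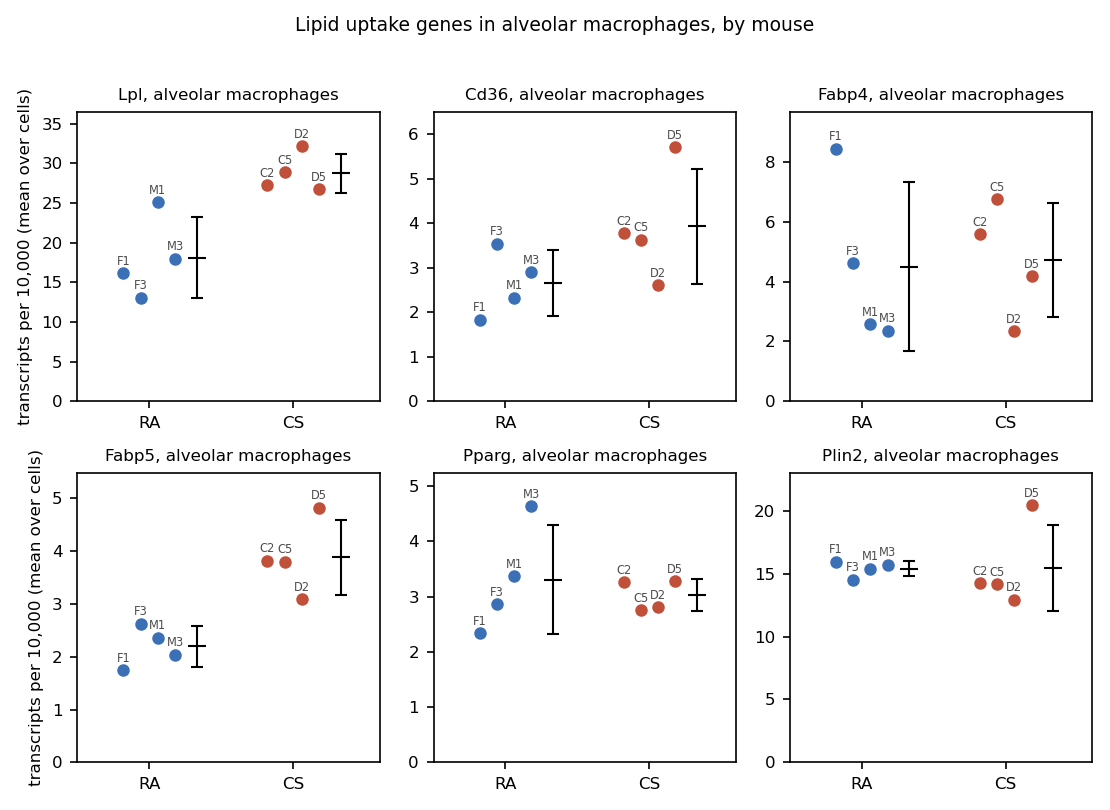
Transcripts per 10,000 in alveolar macrophages for the 6 genes that passed the filter on the share of cells. Each point is a labelled mouse, and bars give mean ± SD of 4 RA or 4 CS mice. The CS mice lie above the RA mice for Lpl (26.8 to 32.1 against 13.1 to 25.1) and for Fabp5, and the groups overlap for the other 4 genes.

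Non-classical monocytes, the type with the most Pparg, were compared in 4 CS and 3 RA mice, since RA mouse F1 had under 20 such cells. Plin2 stood at 7.32, 8.87, 7.07 and 6.92 in CS mice C2, C5, D2 and D5 and at 4.67, 6.64 and 3.56 in RA mice F3, M1 and M3. Cd36 stood at 7.31, 7.44, 5.46 and 6.93 in the same CS mice and at 4.78, 5.25 and 5.17 in the RA mice. All CS mice were above all RA mice for both genes, as were 4.18% of the 6,433 genes tested. The log2 differences were 0.55 for Plin2 (standard error 0.176, adjusted p = 0.702, limma) and 0.35 for Cd36 (standard error 0.156, adjusted p = 0.721). Pparg overlapped, at 6.50 to 9.69 in CS mice and 5.38 to 8.86 in RA mice. Fabp5, at a low level, went the other way, with 0.116 to 0.263 in CS mice and 0.298 to 0.494 in RA mice and no overlap, as for 2.86% of genes (adjusted p = 0.721). Of all genes, limma called 0.0% in this type, and the unadjusted p was 0.00528 for Plin2, 0.0341 for Cd36 and 0.025 for Fabp5. Of all genes, 6.54% had an unadjusted p under 0.05.

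In AT2 cells, Fabp5 was 13.0 ± 0.956 (CS) and 12.0 ± 2.13 (RA; SD, n = 4 each; log2 difference 0.12, adjusted p = 0.869), and Cd36 was 6.35 ± 0.664 and 6.94 ± 1.07 (-0.11, adjusted p = 0.877). Plin2 in AT2 cells was 1.17 ± 0.231 and 1.69 ± 0.477 (-0.30, adjusted p = 0.649). In club cells, Cd36 stood at 1.11, 1.48, 1.20 and 1.62 in CS mice C2, C5, D2 and D5 and at 3.20, 1.45, 2.39 and 2.12 in RA mice F1, F3, M1 and M3, with an overlap through F3 (log2 difference -0.46, standard error 0.141, adjusted p = 0.301). Fabp4, tested in 4 types, had a smallest adjusted p of 0.621. In alveolar fibroblasts, Plin2 ran from 1.93 to 2.99 in CS mice and 2.42 to 4.64 in RA mice (log2 difference -0.20, adjusted p = 0.453).

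**Figure D4:**
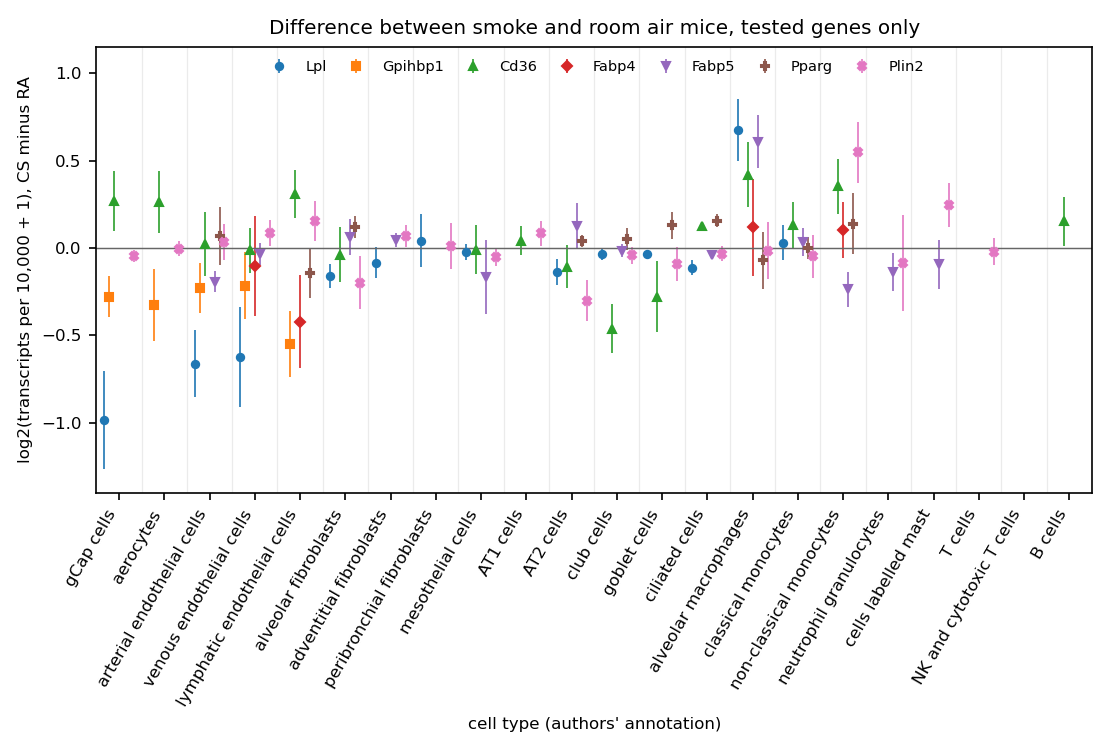
Difference on log2(transcripts per 10,000 + 1), CS minus RA, for each gene in the cell types where it was tested, with standard errors from limma. The gCap values, at the left, are a description. Lpl lies at -0.99 in gCap cells and at 0.67 in alveolar macrophages, and most other values lie near 0.

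The other genes of lipid handling were taken from 6 lists of 91 genes, covering lipolysis, fatty acid uptake, droplets, export, PPAR receptors with their partners, and fatty acid oxidation. They were compared in gCap cells, aerocytes, 3 fibroblast types and alveolar macrophages. Over these 6 types 9 of 330 gene and type pairs passed the threshold, 4 higher and 5 lower in CS mice, which is the same share as the 2.73% of all gene and type pairs called. In alveolar fibroblasts 3 of 63 tested genes fell and 0 rose (1.37% of all genes called), and in adventitial fibroblasts 2 of 67 rose and 0 fell (3.1% called). In gCap cells 2 of 41 were called higher and 2 lower (10.3% called), 1 of the latter having reached 10% of cells in RA mice alone. None of 42 genes was called by limma in aerocytes, of 56 in peribronchial fibroblasts or of 61 in alveolar macrophages, where 9, 5 and 7 had an unadjusted p under 0.05, as had 24.5%, 8.58% and 10% of all genes in those types. Among all genes, 1.96%, 0.0% and 0.53% were called in those 3 types.

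By list and over these 6 types, 2 of 59 pairs of a lipolysis gene and a type rose and 2 fell, 1 of 62 droplet pairs rose and 2 fell, and 1 of 51 pairs of the PPAR list rose, while the 1 called lower was Cebpb in gCap cells. None of 55 uptake, 33 export or 70 oxidation pairs was called by limma, where 3, 8 and 12 had an unadjusted p under 0.05, as had 20.3% of all gene and type pairs. The median log2 difference of the droplet genes was -0.11 in gCap cells (9 tested, 2 positive) and -0.15 in alveolar macrophages (11 tested, 4 positive), beside 0.01 and -0.00 over all genes tested in those types. In the other 4 types it was -0.09 to 0.05. The oxidation genes had a median of -0.09 in alveolar fibroblasts, where 1 of 13 was positive, and of 0.14 in alveolar macrophages, where 11 of 13 were positive, beside 0.00 and -0.00 over all genes. In the other 4 types it was -0.18 to -0.01. Over all genes tested, 3,454 of 6,556 were positive in gCap cells, 4,228 of 8,329 in alveolar fibroblasts and 3,714 of 7,554 in alveolar macrophages. The lists were not tested as sets, and the genes of a list were measured in the same mice. These medians and counts include genes that reached 10% of cells in one group alone, where the filter favoured one direction. Among them were Plin3 in gCap cells and Slc25a20 and Ucp2 in alveolar fibroblasts, which passed through RA mice.

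Angptl4, which encodes a secreted inhibitor of lipoprotein lipase, had the largest difference on log2(level + 1) of the listed genes tested. In alveolar fibroblasts it stood at 0.686, 1.19, 1.24 and 1.54 in CS mice C2, C5, D2 and D5 and at 4.10, 2.52, 3.37 and 3.72 in RA mice F1, F3, M1 and M3. No CS mouse reached an RA mouse, as for 7.64% of the genes tested in this type, and the means were 1.16 ± 0.354 and 3.43 ± 0.674 (SD, n = 4 each). The log2 difference came to -1.04 (standard error 0.136, adjusted p = 0.00542, limma). It fell also without F1 (-0.96, adjusted p = 0.00817) and with the sequencing lane, which held 1 CS and 1 RA mouse each, as a replicate block (adjusted p = 0.0334). The Angptl4 call was lost in 1 of 16 alternative analyses, with no filter on the share of cells (limma adjusted p = 0.0846). In adventitial fibroblasts, Angptl4 was 0.597 ± 0.189 and 1.13 ± 0.373 (log2 difference -0.41, adjusted p = 0.0813). In alveolar macrophages it was 0.80 and 0.81 (adjusted p = 0.978).

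Apoe, an apolipoprotein that binds receptors for remnant lipoproteins, fell in alveolar fibroblasts. It stood at 13.3, 18.7, 22.5 and 18.1 in CS mice C2, C5, D2 and D5 and at 30.0, 27.8, 28.7 and 28.5 in RA mice F1, F3, M1 and M3. On the log2 scale it fell by 0.66 (standard error 0.144, adjusted p = 0.0433). The Apoe call was lost in 10 of 16 alternative analyses, the lane block among them. The limma adjusted p was 0.0786 without F1 and at most 0.236. Plin3, a droplet coat protein related to Plin2, fell there too, from 0.824 ± 0.079 in RA to 0.509 ± 0.072 in CS mice (log2 difference -0.27, adjusted p = 0.0468). The Plin3 call was lost in 11 of 16 alternative analyses, with a limma adjusted p of 0.0763 without F1 and of up to 0.628. The digestion response genes summed to 96.1 to 170 in alveolar fibroblasts of CS mice and 102 to 163 in those of RA mice, so they overlapped between the groups.

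In gCap cells, Hilpda, which encodes a droplet protein that inhibits triglyceride breakdown, fell from 6.85 ± 1.27 to 4.56 ± 0.255 (SD, n = 4 each; log2 difference -0.48, standard error 0.121, adjusted p = 0.0383). Cebpb, a transcription factor that acts with PPARγ in fat cells, stood at 0.391 ± 0.096 in RA and 0.228 ± 0.017 in CS mice. It is the other gene counted as lower in gCap cells, but it reached 10% of cells in RA mice alone, so its values are a description. Pcsk5, which encodes a proprotein convertase of a family that can cut lipases, rose from 1.56 ± 0.306 to 2.7 ± 0.471 (0.53, adjusted p = 0.029), and Ncoa1, a coactivator of nuclear receptors, rose from 1.11 ± 0.067 to 1.63 ± 0.068 (0.32, adjusted p = 0.0155). For Hilpda, Pcsk5 and Ncoa1 the CS and RA mice did not overlap, as for 13.6% of all genes tested with CS above RA and 11% with CS below. The counts stood beside 10.3% of all genes called in gCap cells, a share that fell with single mice left out as given above. With the lane as a block the adjusted p became 0.0730 for Hilpda, 0.0728 for Pcsk5 and 0.0646 for Ncoa1, and none of these was called without C2, D5 or F3. In gCap cells the median log2 difference of the 41 listed genes was -0.01 and that of all genes 0.01. In adventitial fibroblasts, Gpam, which starts glycerolipid synthesis, rose from 0.507 ± 0.123 to 0.930 ± 0.044 (0.36, adjusted p = 0.0236), and Sort1, a sorting receptor for lipoproteins and lipase, rose from 0.322 ± 0.056 to 0.597 ± 0.132 (0.27, adjusted p = 0.0453). Neither overlapped, as for 7.9% of genes with CS above RA, and without F1 these had adjusted p of 0.0646 and 0.123. Of 16 alternative analyses, the lane block among them, the call was lost in 8 for Gpam and in 11 for Sort1. In this type erythroid markers summed to 0.271 to 0.771 in CS mice and to 13.7, 0.427, 12.3 and 24.4 in RA mice F1, F3, M1 and M3, and the type's own markers to 78.0 to 101 and 100.3 to 124. Their part in these values was not tested.

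**Figure D5:**
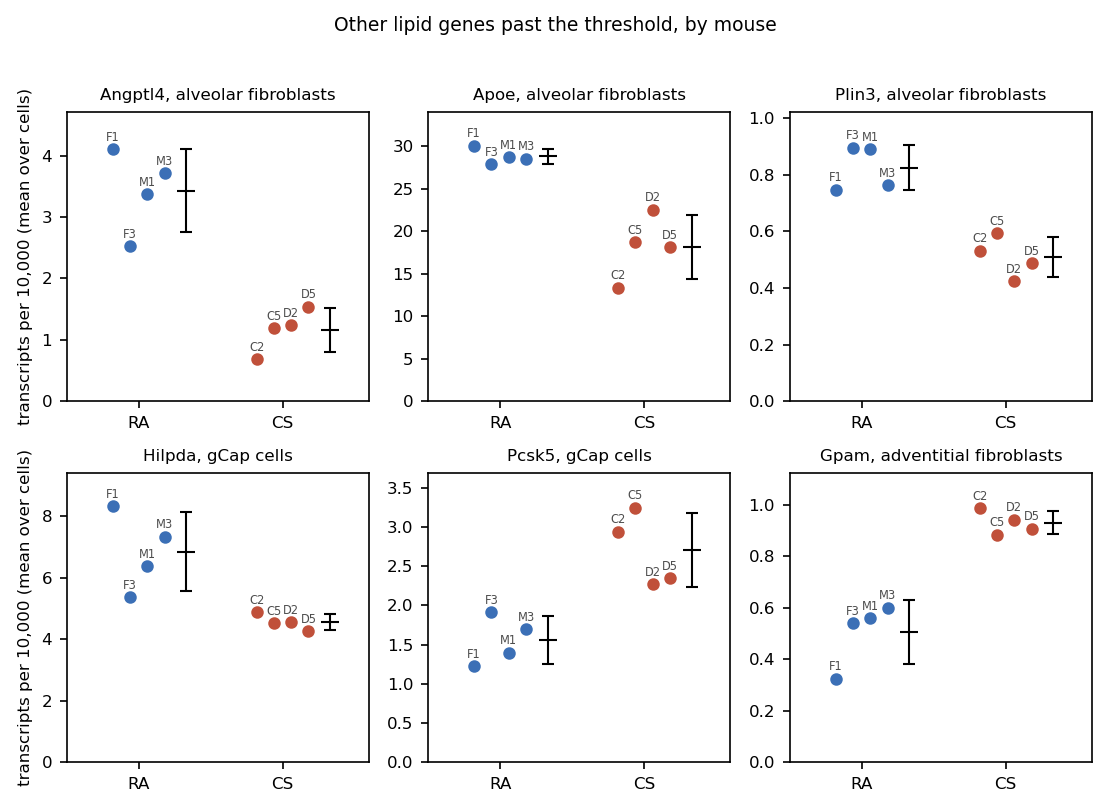
Transcripts per 10,000 of 6 of the listed lipid genes that passed the threshold, in the cell type named above each panel. Each point is a labelled mouse, and bars give mean ± SD of 4 RA or 4 CS mice. The groups do not overlap in these panels, and Angptl4 in alveolar fibroblasts shows 0.686 to 1.54 in CS mice against 2.52 to 4.10 in RA mice.

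The remaining listed genes named for these types did not pass. In lipolysis, Lmf1, a maturation factor of lipoprotein lipase, was 0.30 in CS and 0.35 in RA gCap cells (adjusted p = 0.17), and the receptors Vldlr and Lrp1 had their smallest adjusted p in adventitial and alveolar fibroblasts, at 0.14 and 0.53. Lipa, the lysosomal lipase, was 3.68 and 3.29 in alveolar macrophages (0.87). Meox2, which with Tcf15 controls fatty acid transport in endothelium, was tested in fibroblasts alone (1.30 and 1.04 in alveolar fibroblasts, 0.24), and Tcf15 was not tested in any of the 6 types.

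For uptake, the transporter Slc27a4 was 0.33 in alveolar macrophages of CS mice and 0.15 in those of RA mice (adjusted p = 0.50). Slc27a1, there 0.39 and 0.11, reached 10% of cells in CS mice alone and is given with no test, and Slc27a3 was 0.59 and 0.57 in alveolar fibroblasts (0.91). Fabp1 was 2.42 and 3.66 in alveolar macrophages (0.50) and Fabp3 0.57 and 0.43 in alveolar fibroblasts (0.54). The acyl-CoA synthetase Acsl1 was 0.77 and 0.69 in aerocytes (0.38) and Acsl4 0.42 and 0.42 in gCap cells (0.98). Cav1, the caveolar coat protein, was 10.0 and 9.67 in gCap cells (0.74), and Scarb1, a lipoprotein receptor, 2.01 and 1.87 (0.67). Msr1, Plin1 and Plin4 were not tested in these types.

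For droplets, Pnpla2, which encodes the adipose triglyceride lipase, was 0.863 ± 0.068 in CS and 1.13 ± 0.147 in RA gCap cells (adjusted p = 0.0544). The groups did not overlap, as for 11% of all genes tested in gCap cells with CS below RA. Cidec was 2.64 and 3.18 in alveolar macrophages (adjusted p = 0.78), and Dgat2 1.04 and 1.25 in alveolar fibroblasts (0.59). For export, Abca1 was 0.69 and 1.26 (0.35) and Abcg1 13.1 and 13.8 (0.93) in alveolar macrophages. Among the regulators, Rxra was 1.29 and 1.21 (0.94), Ppard 0.64 and 1.0 (0.50) and Cebpa 1.18 and 1.58 (0.66) in alveolar macrophages, and Ppara 0.23 and 0.27 in alveolar fibroblasts (0.60). Of the oxidation genes, Cpt1a, which admits fatty acids to mitochondria, was 1.67 and 1.17 in alveolar macrophages (0.42) and 1.17 and 0.92 in gCap cells (0.10), and Pdk4 was 0.17 and 0.32 in adventitial fibroblasts (0.10).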

How the data were processed

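Single-cell libraries (10x Genomics 3′ v3) were made from the lungs of 8 mice. The authors aligned reads with STAR 2.7.3a (STARsolo) to GRCm38.p6, filtered cells on total, unspliced and mitochondrial transcripts, removed cell-free RNA with SoupX, removed or marked multiplets and named the cell types. The deposited matrix holds expected counts, UMIs after SoupX, of which 98.7% are not whole numbers, so no count model was fitted. The percent of mitochondrial reads and the count of genes per cell that the authors deposited were not used. Multiplets followed the authors' label, and no further doublet caller was run.

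Here each cell was scaled to 10,000 transcripts and averaged per mouse and cell type (at least 20 cells). limma 3.58.1 (R 4.3.3; lmFit, eBayes with trend) was fitted per type on log2(mean + 1), CS against RA, for genes that 10% or more of cells held in the CS or the RA group; p-values were adjusted by Benjamini-Hochberg over all genes tested, with a threshold of 0.05. Fold differences on this scale understate the change of low genes. Single values were compared by the exact two-sided permutation test over 70 assignments. Tests were first tried on simulated data, where 97% of 200 genes changed by 1 on the log2 scale were recovered among the 7,554 genes of alveolar macrophages and 97% among the 6,556 of gCap cells, with 6.28% and 6.73% of the calls made there being genes that had not been changed. Changes smaller than 1, as most of those given here are, were not tried, so their recovery was not tested. Whether the shares recovered and wrongly called hold where many genes of one mouse shift together was not tested either. The spread between mice holds both sampling and biological differences, and littermates were randomized to the groups.

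The 7 genes, the lists and the tests were chosen with earlier results of these data known. Genes were named by rule: the 7 members in each type with at least 20 cells in at least 6 mice, a fixed set of lipid genes where tested in capillary, fibroblast and alveolar macrophage types, any listed gene past the threshold, and the 3 genes most like each member over types. Jun, Junb, Atf3, Dnajb1, Plvap, Sema3c and Cd93 were named outside this rule, as marker or digestion response genes past the threshold. Of 91 listed lipid genes 90 were found. Gene positions are from GENCODE on GRCm38. Replicate numbers pair no mice. Lanes, each with 1 CS and 1 RA mouse, were tried as a block. Alternatives were summed counts, median scaling, a pseudocount of 0.1, filters of 25% of cells and none, thinning to 2,000 UMIs, labelled sex, and leaving out each mouse.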

Additional observations from a re-analysis of the deposited data

Results flagged for a closer look

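In gCap cells, Lpl in RA mouse F1 was 13.2 transcripts per 10,000, far from the other 3 RA mice, which lay between 4.32 and 4.63. In goblet cells, Cd36 in CS mouse C2 was 5.47, while the other 3 CS mice lay between 3.02 and 3.19. In classical monocytes, Plin2 in CS mouse C2 was 5.66, below the 7.39 to 7.69 of the other 3. These were 3 of 57 groups of 4 mice checked for a sample apart from the rest by Dixon's criterion, for which chance gives about 2.85. The groups share the same mice and include the gCap values of Lpl, for which the genes were chosen. The count is therefore a description, and no single flag was tested against chance.

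The difference of Lpl between CS and RA mice had opposite signs in alveolar macrophages (0.67 on the log2 scale) and gCap cells (-0.99), with every CS mouse above every RA mouse in the first type and below in the second. The difference between the types was not tested, since the genes were chosen for the gCap value.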

How the results depend on the processing

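The 2 calls of the 7 genes outside gCap cells became 0 with summed counts, no filter on the share of cells or thinned cells, and 1 with a filter of 25% of cells. They ranged from 0 to 2 with a mouse left out. The 9 calls of listed lipid genes became 0 with no filter, 5 with thinned cells, 11 with summed counts, 12 with median scaling and 13 with a filter of 25% or with labelled sex, and ranged from 1 to 9 with a mouse left out. The cause was not tested.

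With the sequencing lane as a replicate block, 0 of the 2 calls and 1 of the 9, Angptl4, were left. The Lpl difference in gCap cells was then -0.99 (standard error 0.216). Lane mates deviated together (r over 0.1) in 3 of 22 pairs, with r from -0.27 to 0.39. These 3 were in capillary types, at 0.39 in gCap cells (lane 4) and 0.24 and 0.28 in aerocytes (lanes 1 and 4). Mice of different lanes were not compared in this way, so whether the lane pairs the mice was not tested.

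Lpl in gCap cells stayed between -1.20 and -0.64. Of 615 values of 39 named results under the alternatives, 502 kept their direction and side of the threshold and 88 kept their direction but were no longer past it. Of the rest, 24 changed sign, none of them called. With thinned cells Cd36 in venous endothelial cells was 0.0095 and Plin2 in classical monocytes 0.0203, and with summed counts Cd36 in venous endothelial cells was 0.0263. With a mouse left out, values ranged from -0.14 to 0.17 for Cd36 in arterial and from -0.056 to 0.042 in venous endothelial cells, from -0.075 to 0.42 for Fabp4 in alveolar macrophages and from -0.46 to 0.11 in venous endothelial cells, from -0.23 to 0.058 for Fabp5 in cells labelled mast, from -0.34 to 0.0011 for Gpihbp1 in venous endothelial cells, from -0.15 to 0.058 for Plin2 in alveolar macrophages, from -0.091 to 0.043 in classical monocytes and from -0.25 to 0.23 in neutrophil granulocytes, and from -0.18 to 0.069 for Pparg in alveolar macrophages and from -0.023 to 0.29 in non-classical monocytes.

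Alveolar macrophages rested on 31 to 112 cells per mouse. Calls over all genes also moved with a mouse left out, from 672 to between 0 and 657 in gCap cells, from 135 to between 12 and 408 in aerocytes, from 114 to between 43 and 87 in alveolar and from 292 to between 23 and 191 in adventitial fibroblasts, and from 40 to between 8 and 81 in alveolar macrophages. With the lane block 0 were left in gCap cells. Lpl in alveolar macrophages passed the threshold in 1 alternative, without RA mouse M1. Labelled sex as a term left the 2 calls at 2, but the labels of the CS libraries went against their sex-linked transcripts.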
